A study of Mus musculus with 12 samples.

Results

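The genes described here are the nuclear genes of the mitochondrial gene expression machinery, 58 genes chosen from a list of symbols and found by gene name among the 44450 loci of each deposited table. They cover 5 steps: upkeep of mitochondrial DNA (9 genes), its transcription (8), RNA stability and decay (16), ribosome assembly (14) and translation (11). The RNA was total heart RNA, the strain C57BL/6N and the age 11 weeks in every sample. The 3 knockout libraries came from mice that were Mrpp3 loxP/loxP, +/Ckmm, where Ckmm is known as the name of a transgene that makes Cre recombinase from the muscle creatine kinase promoter. That promoter is active in heart and skeletal muscle cells, so the other cells of the heart keep the gene. The 3 control libraries came from Mrpp3 loxP/loxP mice without it, so both groups carried the loxP-flanked allele and only the knockouts carried Cre, whose own effect cannot be told apart from that of the deletion. The labels number the samples within a group without naming animals, and the p-values therefore describe sample-to-sample spread, part of which may be technical. The question is what levels these genes have in hearts that lost MRPP3, the nuclease subunit of mitochondrial RNase P. Another 6 libraries of the series, made from mitochondrial RNA, were not analysed here.

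Mitochondria keep a small circular genome that is copied by its own polymerase and read by its own RNA polymerase into long transcripts of both strands. RNase P, whose nuclease is MRPP3, cuts these transcripts at the 5′ ends of the tRNAs that lie between the coding genes. The freed mRNAs are held by RNA-binding proteins, the freed rRNAs are methylated and built into ribosomes with the help of GTPases and helicases, and a set of bacterial-type factors runs translation. All proteins of these later steps are made from nuclear genes and imported, and the heart, which depends on respiration, needs them at high capacity.

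Levels are in FPKM, which corrects for transcript length, so different genes may be compared. Fold changes set knockout over control after taking log2(FPKM + 0.5), and the added 0.5 understates changes of low genes. The test was a limma linear model over the 12181 loci that reached 1 FPKM in 3 or more libraries, Benjamini-Hochberg adjusted over all of them, and a gene passed at an adjusted p under 0.05. The nuclease gene itself, Prorp (listed as 1110008L16Rik and overlapping Ppp2r3c in the annotation), had 0.441, 0.701 and 0.555 FPKM in the knockout libraries and 3.49, 2.64 and 3.23 FPKM in the control libraries, so the libraries carried the genotype of their labels. The files give no read totals. Judged from the step size of low values, knockout libraries were 2.58, 2.06 and 2.19 times as deep as control replicate 1, and control replicates 2 and 3 were 1.32 and 1.35 times as deep as it, so depth moved with genotype, although for knockout replicate 1 another ratio was almost as common (206 loci against 230). Its part in the results was not tested.

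One library, knockout replicate 2, differed from the rest. Markers of atrial muscle summed to 13847 FPKM in it, against 2066 and 2330 FPKM in the other knockouts and 42.5 to 121 FPKM in controls, and markers of red cells to 21895 FPKM, against 622 and 2010 FPKM in the other knockouts and 1572 to 2902 FPKM in controls. Of the 4 atrial markers 1, Nppa, rose and 2 had at least 1 FPKM in every library, Myl7 was listed at 0 in control replicate 2, and Sln was listed at 0 in knockout replicate 3 and in control replicates 2 and 3. Nppa alone had 1948, 10527 and 2327 FPKM in knockout replicates 1, 2 and 3. Myl7, Myl4 and Sln had 43.5, 66.1 and 8.52 FPKM in knockout replicate 1 and 911, 2290 and 118 FPKM in replicate 2. In knockout replicate 3 they had 0.0961, 3.35 and 0 FPKM, within the range of controls, so its sum was nearly all Nppa. Cardiomyocyte markers were present in every library. Of these 8 genes 7 fell, and their sum was 7611 to 16601 FPKM in knockouts, lowest in replicate 2, against 34513 to 39734 FPKM in controls. The calls of Pln and Ryr2 held in all 17 alternatives to the main fit. Those of Tnnt2, Myl3, Myh6, Actc1 and Tnni3 were lost in 10, 8, 7, 4 and 1 of them, and Myl2 passed in 7. For macrophages 3 of 6 markers rose (sums of 125 to 135 FPKM in knockouts and 91 to 101 FPKM in controls), for fibroblasts 3 of 6 rose (333 to 567 FPKM in knockouts and 323 to 398 FPKM in controls), for endothelium 0 of 5 passed by limma, with 2 at an unadjusted p under 0.05 (140 to 173 FPKM in knockouts and 158 to 178 FPKM in controls), and for smooth muscle and pericytes 1 of 5 rose and 1 fell (182 to 233 FPKM in knockouts and 261 to 291 FPKM in controls). Among these other cell types the calls of Col3a1, Adgre1, Rgs5 and Pdgfrb were lost in 7, 6, 8 and 6 alternatives. Some markers that did not pass did so in at least 1 alternative, among them Lum, Lyz2, Ptprc, Tek and Myh11. The part of cell makeup in the results below was not tested, and in whole hearts fewer cells of a type and less RNA per cell cannot be told apart.

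More of the machinery was lower than higher in the knockout hearts. Of the 58 genes, 56 had at least 1 FPKM in every library and were tested, of which 20 fell, 3 rose and 33 did not pass. The genes that fell make up 35.7% of those tested, beside a background of 19.5% over all 12181 loci, and the genes that rose 5.36%, beside 16.1%. The median log2 fold change was -0.35 over the 56 genes and -0.02 over all loci. Of the 56 values 48 were below 0, beside 51.5% of all loci, and 15 of the 48 changed sign under at least 1 alternative. All 3 knockout libraries lay below all 3 control libraries for 29 of the 56 genes, against 28.7% of all loci, and above them for 4, against 23.6%. The members were chosen from a list with earlier results of these data known, so no test of the list as a whole was made.

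Of the 23 genes past the threshold, 14 kept their call with each library left out in turn and under each of the 11 other settings tried. These were Mgme1, Dguok, Tk2, Mpv17, Mterf2, Mterf3, Fastkd1, Rexo2, Tfb1m, Mpv17l2, Mtg2, Mtif2, Tufm and Oxa1l. The number of genes that fell was 13, 11 and 13 without control replicate 1, 2 or 3. Over all loci the same omissions left 1529, 1409 and 1470 lower, against 2377 with all libraries. Setting all libraries to one summed FPKM shifted the median of all loci to 0.20, and relative to that shift the median of the 56 genes was -0.34. Under this scaling 11 of them fell and 5 rose, beside 11.5% and 26.5% of all loci. With mitochondrial loci left out of the sum the shift was 0.22 and the relative median -0.33, again with 11 lower and 5 higher, beside 10.6% and 27.7%. Median-of-ratios scaling divides each library by its median ratio to the geometric mean of the libraries. Those factors were 0.992, 0.997 and 0.987 in knockout replicates 1 to 3 and 1.02 in each control. After it 18 of the 56 genes fell and 3 rose, beside 2179 lower and 2108 higher of the 12181 loci.

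**Figure D1:**
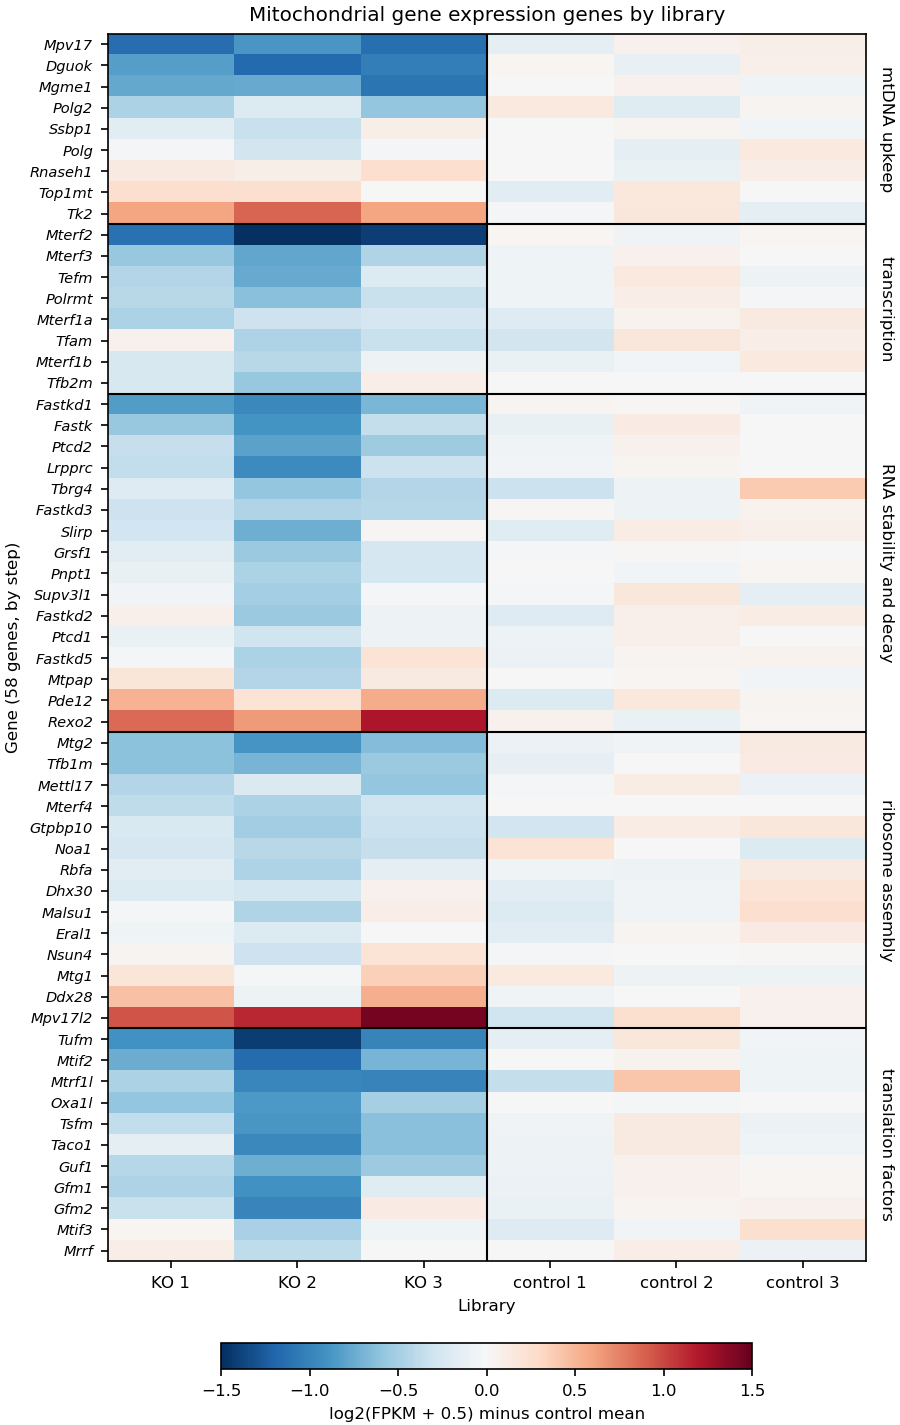
Level of each of the 58 genes in each library as log2(FPKM + 0.5) minus the mean of the 3 control libraries (colour, limited to 1.5 either way), with the knockout libraries (KO) on the left and genes ordered by their knockout mean within each step. Knockout replicate 2 is the bluest column for most genes, and the strongest reds are in Mpv17l2 and Rexo2.

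The 3 knockout libraries did not carry the difference evenly. The median difference of the 56 genes from the control mean was -0.24, -0.52 and -0.26 on the log2 scale in knockout replicates 1, 2 and 3, while the control libraries stood at -0.05, 0.04 and 0.02. Replicate 2 gave the lowest knockout value for 48 of the 56 genes, and for 43.7% of all tested loci. Summed over the 58 genes, the libraries held 933, 729 and 962 FPKM in knockouts and 1072, 1181 and 1209 FPKM in controls, so that every knockout lay below every control. The sum over all loci was also lower in every knockout, so this order is not particular to the 58 genes. It was 466993, 456493 and 516068 FPKM in knockouts and 523499, 574944 and 589995 FPKM in controls. Without replicate 2 the median log2 fold change of the 56 genes was -0.24, with 19 genes lower and 5 higher, beside 19.6% and 17.7% of all loci.

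**Figure D2:**
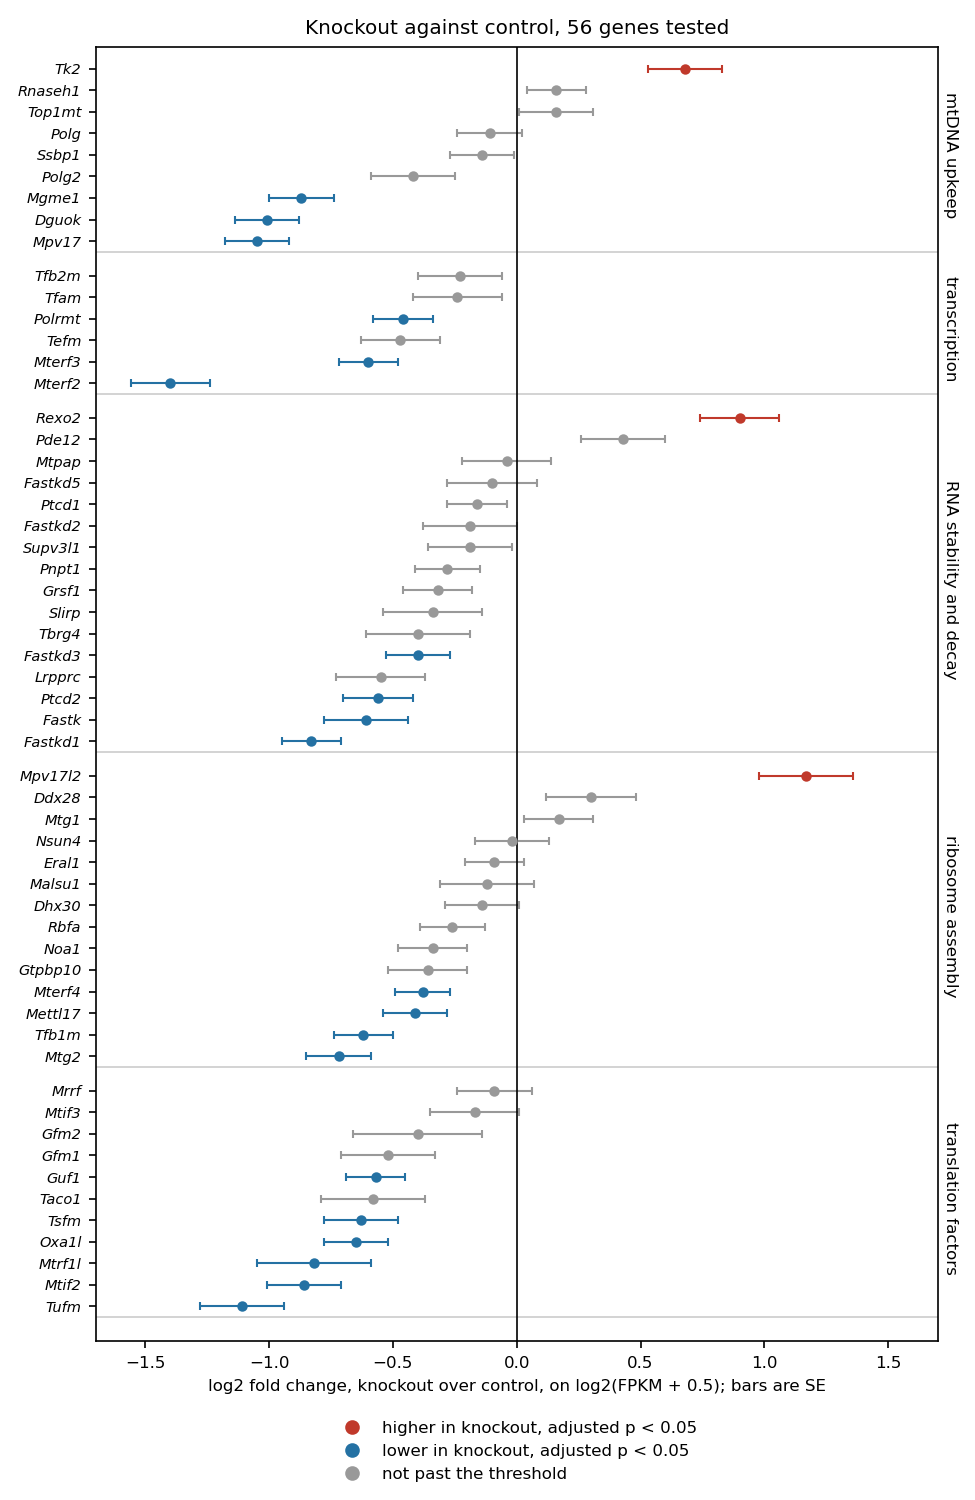
Log2 fold change of the 56 tested genes, knockout over control, with its standard error (n = 3 libraries per group), by step. Red points rose and blue points fell at a limma adjusted p under 0.05, and grey points did not pass; every transcription and translation gene lies to the left of 0, although Tfam, Tfb2m, Mtif3 and Mrrf change sign under at least 1 alternative.

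Of the 9 genes of mitochondrial DNA upkeep 3 fell and 1 rose (33.3% and 11.1%, beside 19.5% and 16.1% of all loci), and all 4 calls held with each library left out. Both kinases of the deoxynucleoside supply were among the genes that passed, while the polymerase subunits were not. Dguok, the mitochondrial kinase of purine deoxynucleosides (chromosome 6, 83480214 to 83506969, GRCm38), had 10.6, 8.25 and 9.09 FPKM in knockouts and 19.6, 17.8 and 20.3 FPKM in controls. Every knockout value lay far below every control value, with a log2 fold change of -1.01 (adjusted p = 0.0015 by limma, SE 0.13). Tk2, the mitochondrial kinase of pyrimidine deoxynucleosides (chromosome 8, 104226691 to 104248592), went the other way. It had 4.04, 5.05 and 4.04 FPKM in knockouts and 2.48, 2.90 and 2.23 FPKM in controls, without overlap, a log2 fold change of 0.68 (adjusted p = 0.011 by limma, SE 0.15). Mgme1, a nuclease that trims single-stranded ends of mitochondrial DNA (chromosome 2, 144270904 to 144281227), had 3.56, 3.61 and 2.75 FPKM in knockouts and 6.46, 6.74 and 6.13 FPKM in controls. The groups did not overlap, and the log2 fold change was -0.87 (adjusted p = 0.0032 by limma, SE 0.13).

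Mpv17 encodes an inner membrane protein whose loss depletes mitochondrial DNA. Its locus (chromosome 5, 31140663 to 31154251 for the gene) is listed together with Gtf3c2 and Gm29609, so the value cannot be assigned to Mpv17 alone. The shared locus had 23.1, 28 and 23.4 FPKM in knockouts and 46.7, 53.9 and 54.7 FPKM in controls, the highest level of this step. The knockouts lay below all controls, with a log2 fold change of -1.05 (adjusted p = 0.0015 by limma, SE 0.13). Among the genes that did not pass, Polg, the catalytic subunit of the DNA polymerase, averaged 18.6 ± 1.86 FPKM in knockouts and 20.1 ± 2.04 FPKM in controls (SD, n = 3 each, limma adjusted p = 0.54). Its log2 fold change of -0.11 turned positive when libraries were scaled to one sum (0.12), and the gene overlaps Fanci in the annotation. Polg2, its accessory subunit, was low, with 1.25, 1.61 and 1.12 FPKM in knockouts and 2.18, 1.63 and 2.00 FPKM in controls. These did not overlap, by a small margin, and did not pass (log2 fold change -0.42, limma adjusted p = 0.097), except with array weights (0.04). Ssbp1, which coats single-stranded DNA, Top1mt, a topoisomerase, and Rnaseh1, which removes RNA primers, had log2 fold changes of -0.14, 0.16 and 0.16 with overlapping libraries, the first of which was 0.08 when scaled to one sum.

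For transcription, each of the 6 tested genes had a log2 fold change below 0 (beside 51.5% of all loci), apart from Tfam and Tfb2m under 1 scaling. Of the 6 genes 3 fell (50%, beside 19.5% of all loci), 2 of them also with each library left out. The largest falls of this step were those of Mterf2 and Mterf3, of the family of MTERF proteins, which bind mitochondrial nucleic acids. Mterf2 (chromosome 10, 85119433 to 85128027) had 7.02, 4.59 and 5.64 FPKM in knockouts and 16.1, 15.3 and 16.1 FPKM in controls. No other member fell further, with a log2 fold change of -1.40 (adjusted p = 0.00094 by limma, SE 0.16), and the control values were close together. Mterf3, needed for mitochondrial ribosome biogenesis and described as a brake on transcription in the mouse (chromosome 13, 66906577 to 66933083), had 14.5, 12.4 and 15.8 FPKM in knockouts and 20.7, 22.7 and 21.8 FPKM in controls. Again no knockout reached a control, and the log2 fold change was -0.60 (adjusted p = 0.0097 by limma, SE 0.12). Mterf3 overlaps Ptdss1 in the annotation, and use of strand is not given in the sources used here.

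Mterf1a and Mterf1b, the pair of mouse genes for the factor that binds the terminator after the rRNA genes, were too low to be tested. Mterf1a had 0.658, 0.796 and 0.846 FPKM in knockouts and 0.905, 1.17 and 1.26 FPKM in controls, and Mterf1b had 0.433, 0.325 and 0.544 FPKM in knockouts and 0.521, 0.563 and 0.719 FPKM in controls. They are close copies, so fragments may have been split between them by the authors' counting. Among the core factors, Tfam, Tfb2m and Tefm did not pass. The RNA polymerase gene Polrmt fell, with a call that did not hold with each library left out, and is described below. Tfam, which packs mitochondrial DNA and bends its promoters, had 20.4, 14.0 and 15.3 FPKM in knockouts and 16.0, 21.9 and 20.9 FPKM in controls, so that the highest knockout stood above the lowest control (log2 fold change -0.24, limma adjusted p = 0.33, and 0.01 when libraries were scaled to one sum without mitochondrial loci). Tfb2m, which opens the promoter, averaged 6.31 ± 1.58 FPKM in knockouts and 7.37 ± 0.0328 FPKM in controls (SD, n = 3 each, limma adjusted p = 0.32). Its log2 fold change of -0.23 was 0.01 under that same scaling. Tefm, the elongation factor, had 9.83, 7.75 and 11.6 FPKM in knockouts and 12.9, 14.9 and 12.7 FPKM in controls. These did not overlap and did not pass (log2 fold change -0.47, limma adjusted p = 0.059), while the gene passed without knockout replicate 3 (0.024), with array weights (0.0072) and after quantile normalization (0.038).

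In RNA stability and decay, 4 of 16 genes fell and 1 rose (25% and 6.25%, beside 19.5% and 16.1% of all loci), so the share that fell was near the background. Of these 5 calls 2 held with each library left out, and the number lower was 1 without control replicate 1, 2 or 3 and 2 without knockout replicate 1, while 2 genes were higher without knockout replicate 2. One was the rise of a gene of decay. Rexo2, which degrades the shortest RNA fragments (chromosome 9, 48468512 to 48480611), had 39.0, 33.5 and 50.2 FPKM in knockouts and 22.3, 20.0 and 21.9 FPKM in controls. The lowest knockout stood well above the highest control, with a log2 fold change of 0.90 (adjusted p = 0.0056 by limma, SE 0.16). Fastkd1, of the FASTK family of mitochondrial RNA-binding proteins (chromosome 2, 69686820 to 69712606), fell. It had 6.05, 5.47 and 6.75 FPKM in knockouts and 11.5, 11.3 and 10.8 FPKM in controls, with a log2 fold change of -0.83 (adjusted p = 0.0023 by limma, SE 0.12) and a wide gap between the groups.

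Partners of RNA stability showed smaller differences. Lrpprc, which with Slirp binds mitochondrial mRNAs and keeps them from decay, had 49.2, 32.8 and 50.9 FPKM in knockouts and 62.0, 65.7 and 64.1 FPKM in controls. Knockout replicate 2 was far lower than the other knockouts, no knockout reached a control, and the gene did not pass (log2 fold change -0.55 with SE 0.18, adjusted p by limma = 0.050, just above the threshold). It passed without knockout replicate 2 (0.029) or 3 (0.035), with a minimum of 1 FPKM in all libraries (0.047), after quantile normalization (0.024) and with array weights (0.012). Slirp had 50.7, 37.1 and 62.9 FPKM in knockouts and 54.7, 67.2 and 65.4 FPKM in controls, with overlap (log2 fold change -0.34, limma adjusted p = 0.23). Pnpt1, the polynucleotide phosphorylase of the degradosome, had 9.30, 7.11 and 8.25 FPKM in knockouts and 10.1, 9.74 and 10.3 FPKM in controls, which did not overlap and did not pass (limma adjusted p = 0.12). Its helicase partner Supv3l1 overlapped between groups and did not pass (log2 fold change -0.19, and 0.03 when scaled to one sum). Mtpap, which adds poly(A) tails, and Pde12, which removes them, stood at log2 fold changes of -0.04 and 0.43. Pde12, at a locus shared with Mir7672, had 2.68, 2.06 and 2.76 FPKM in knockouts and 1.43, 1.97 and 1.79 FPKM in controls, without overlap. It did not pass (limma adjusted p = 0.085), except without knockout replicate 2 (0.046), with array weights (0.022) and under scaling to one sum (0.021). Mtpap turned to 0.16 without knockout replicate 2 and to 0.18 under that scaling.

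Tbrg4, also called FASTKD4, had the highest level of all 58 genes in both groups. It had 110, 84.4 and 93.2 FPKM in knockouts and 101, 120 and 166 FPKM in controls, with overlap, and its locus also carries the small nucleolar RNA Snora5c. Grsf1, which gathers newly made RNA into granules, had 66.7, 50.2 and 62.2 FPKM in knockouts and 73.5, 75.2 and 74.1 FPKM in controls. Those did not overlap and did not pass (log2 fold change -0.32, limma adjusted p = 0.11). Ptcd1, Fastkd2 and Fastkd5, all RNA-binding proteins, had log2 fold changes of -0.16, -0.19 and -0.10, which were 0.05, 0.03 and 0.12 when scaled to one sum. The Fastkd5 locus is listed with Ubox5, and its value was 0.09 without knockout replicate 2.

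Ribosome assembly held the largest rise. Of its 14 genes 4 fell and 1 rose (28.6% and 7.14%, beside 19.5% and 16.1% of all loci), and 3 of these 5 calls held with each library left out. The number lower was 2 without knockout replicate 1 or without control replicate 1, 2 or 3, and 2 genes were higher without knockout replicate 2. Mpv17l2, an inner membrane protein that binds the large mitochondrial ribosomal subunit in human cells (chromosome 8, 70758649 to 70760932), had 9.26, 10.6 and 13.2 FPKM in knockouts and 3.63, 5.49 and 4.80 FPKM in controls. Each knockout stood well above each control, with a log2 fold change of 1.17 (adjusted p = 0.0035 by limma, SE 0.19). Mtg2, a GTPase of the large subunit (chromosome 2, 180070573 to 180085902), fell. It had 9.27, 7.60 and 9.04 FPKM in knockouts and 13.6, 14.0 and 16.0 FPKM in controls, without overlap, and a log2 fold change of -0.72 (adjusted p = 0.0051 by limma, SE 0.13). Tfb1m, the methyltransferase of the small rRNA (chromosome 17, 3519250 to 3557796, overlapping Tiam2), had 3.53, 3.29 and 3.69 FPKM in knockouts and 5.16, 5.65 and 6.24 FPKM in controls. The groups were again apart, at a log2 fold change of -0.62 (adjusted p = 0.0076 by limma, SE 0.12).

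Another 9 assembly genes did not pass, and 7 of them overlapped between the groups. Malsu1, a factor of the large subunit and the most abundant gene of this step, had 17.1, 12.5 and 18.6 FPKM in knockouts and 14.9, 16.7 and 20.7 FPKM in controls. They overlapped, and its log2 fold change of -0.12 changed sign without knockout replicate 2 (0.04), without control replicate 3 (0.01) and when scaled to one sum (0.10). Nsun4, the rRNA methyltransferase that pairs with MTERF4, averaged 14.2 ± 2.52 FPKM in knockouts and 14.2 ± 0.262 FPKM in controls (SD, n = 3 each, log2 fold change -0.02, limma adjusted p = 0.93), a value that was 0.21 when scaled to one sum, 0.02 with median-of-ratios scaling, 0.03 with array weights and 0.12 without knockout replicate 2. Eral1, a chaperone of the small rRNA, and Dhx30, a helicase listed with Gm27855, had log2 fold changes of -0.09 and -0.14, which were 0.13 and 0.09 when scaled to one sum. Ddx28, another helicase, had 5.10, 3.44 and 5.56 FPKM in knockouts and 3.50, 3.61 and 3.81 FPKM in controls. Here knockout replicate 2 lay below every control while the other knockouts lay above them, and the gene passed only without that library (log2 fold change 0.49, limma adjusted p = 0.023), with array weights (0.016) or under scaling to one sum with or without mitochondrial loci (0.044 and 0.04). The GTPases Mtg1, Gtpbp10 and Noa1 and the small-subunit factor Rbfa had log2 fold changes of 0.17, -0.36, -0.34 and -0.26 and did not pass (limma adjusted p = 0.38, 0.12, 0.10 and 0.17). Every knockout lay below every control for Noa1 and Rbfa, while Mtg1 and Gtpbp10 overlapped between the groups.

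Translation factors had the lowest median log2 fold change of the 5 steps, -0.58. Each of the 11 values was below 0 (beside 51.5% of all loci), apart from Mtif3 and Mrrf under the alternatives named with them. Of these genes 6 fell by limma (54.5%, beside 19.5% of all loci) and none rose, also at an unadjusted p under 0.05. With each library left out 3 of the 6 calls held, and the number lower was 3 without control replicate 2. Tufm, the elongation factor that brings charged tRNAs to the ribosome (chromosome 7, 126487271 to 126490731), had 17.6, 12.2 and 16.5 FPKM in knockouts and 30.6, 37.9 and 32.5 FPKM in controls. The highest knockout was far under the lowest control, with a log2 fold change of -1.11 (adjusted p = 0.0028 by limma, SE 0.17). Mtif2, the initiation factor that places the first tRNA (chromosome 11, 29525352 to 29545452), had 10.8, 8 and 11.1 FPKM in knockouts and 18.4, 19.1 and 17.6 FPKM in controls. It showed the same separation, at a log2 fold change of -0.86 (adjusted p = 0.0046 by limma, SE 0.15). Oxa1l, which inserts new proteins into the inner membrane (chromosome 14, 54360841 to 54369669, overlapping Slc7a7), had 20.7, 17.0 and 22.0 FPKM in knockouts and 31.4, 30.9 and 31.5 FPKM in controls. The controls lay within 1 FPKM of each other, and the log2 fold change was -0.65 (adjusted p = 0.0081 by limma, SE 0.13).

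Gfm1, the translocase and the most abundant translation factor here, had 53.8, 39.2 and 65.2 FPKM in knockouts and 69.5, 77.3 and 75.9 FPKM in controls. No knockout reached a control, yet the knockouts were spread widely and the gene did not pass (log2 fold change -0.52 with SE 0.19, adjusted p by limma = 0.071). It passed without knockout replicate 3 (0.022), after quantile normalization (0.027) and with array weights (0.0072). Gfm2, which acts with Mrrf to split ribosomes after translation, averaged 19.3 ± 7.27 FPKM in knockouts and 24.4 ± 1.52 FPKM in controls (SD, n = 3 each, limma adjusted p = 0.26) and passed only without knockout replicate 3 (0.046). Mrrf itself had a log2 fold change of -0.09 that turned to 0.05 without knockout replicate 2, to 0.03 with array weights and to 0.13 when scaled to one sum. Taco1, an activator of the translation of cytochrome oxidase subunit I, had 17.1, 9.41 and 12.1 FPKM in knockouts and 17.9, 20.8 and 18.1 FPKM in controls. It did not pass (log2 fold change -0.58, limma adjusted p = 0.066), except without knockout replicate 1 (0.015), the library nearest to the controls. Mtif3, an initiation factor, overlapped between groups (log2 fold change -0.17, and 0.05 when scaled to one sum).

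**Figure D3:**
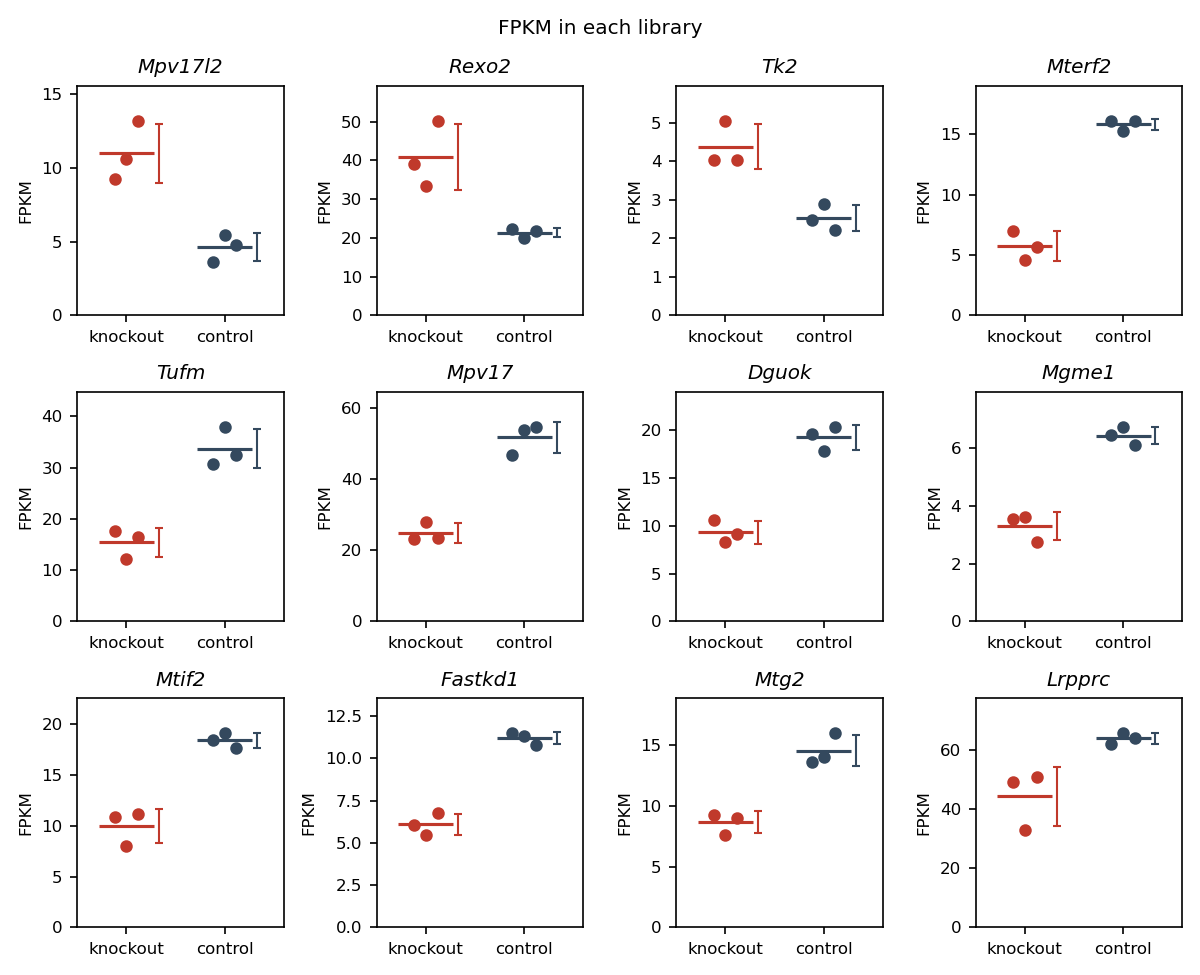
FPKM of 12 genes in each knockout library (red, left) and control library (dark, right), with the mean of 3 libraries as a line and its SD as a bar; replicates 1 to 3 run from left to right and each vertical axis starts at 0. Mpv17l2, Rexo2 and Tk2 are higher in every knockout, and Mterf2, Tufm, Mpv17, Dguok, Mgme1, Mtif2, Fastkd1, Mtg2 and Lrpprc lower in every knockout, Lrpprc without passing the test.

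The remaining 9 genes that fell did so less firmly: each call was lost when at least 1 library was left out. Polrmt, the mitochondrial RNA polymerase, had 8.76, 7.51 and 9.34 FPKM in knockouts and 11.3, 12.8 and 11.6 FPKM in controls. They did not overlap (log2 fold change -0.46 with SE 0.12, adjusted p by limma = 0.025), but the call was lost without knockout replicate 1 (0.053) and without control replicate 1, 2 or 3 (0.062, 0.10 and 0.069). Tsfm, the exchange factor of TUFM, had 16.5, 11.5 and 13.7 FPKM in knockouts and 20.7, 23.6 and 20.2 FPKM in controls. No knockout reached a control (log2 fold change -0.63 with SE 0.15, adjusted p by limma = 0.018), and the call was lost without control replicate 1 (0.053) or 2 (0.075). Guf1, the mitochondrial relative of bacterial LepA, had 11.4, 9.11 and 10.5 FPKM in knockouts and 14.7, 16.2 and 15.7 FPKM in controls. These too were apart (log2 fold change -0.57 with SE 0.12, adjusted p by limma = 0.011), with the call lost without control replicate 2 (0.052). Mtrf1l, a release factor, had 4.42, 2.98 and 2.93 FPKM in knockouts and 4.86, 8.67 and 6.03 FPKM in controls. Control replicate 2 was high, the groups came close (log2 fold change -0.82 with SE 0.23, adjusted p by limma = 0.031), and the call was lost without control replicate 2 (log2 fold change -0.61, 0.090) or 3 (0.074) and without knockout replicate 2 (0.067) or 3 (0.077).

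In RNA stability, Fastk, a regulator of a mitochondrial complex I mRNA, listed with Gm22333, had 57.3, 45.4 and 66.0 FPKM in knockouts and 78.5, 92.5 and 84.4 FPKM in controls. The groups were apart (log2 fold change -0.61 with SE 0.17, adjusted p by limma = 0.027), and the call was lost without knockout replicate 1 (0.061) and without control replicate 1, 2 or 3 (0.058, 0.10 and 0.080). Ptcd2, an RNA-binding protein of the pentatricopeptide family, had 18.8, 13.5 and 16.4 FPKM in knockouts and 23.0, 25.1 and 23.8 FPKM in controls. It showed the same order (log2 fold change -0.56 with SE 0.14, adjusted p by limma = 0.020), with the call lost without control replicate 1, 2 or 3 (0.056, 0.081 and 0.065). Fastkd3, of the FASTK family, had 2.04, 1.80 and 1.84 FPKM in knockouts and 2.69, 2.49 and 2.75 FPKM in controls. Its call (log2 fold change -0.40, limma adjusted p = 0.049) was lost with any one library left out, at 0.074, 0.089 and 0.086 without knockout replicates 1 to 3 and 0.12, 0.11 and 0.14 without control replicates 1 to 3.

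In assembly, Mterf4, which recruits NSUN4 to the ribosome, had 6.78, 6.32 and 7.20 FPKM in knockouts and 9.01, 8.92 and 8.94 FPKM in controls. The gap was small but the controls hardly varied (log2 fold change -0.38 with SE 0.11, adjusted p by limma = 0.029), and the call was lost without knockout replicate 1 (0.065) and without control replicate 1, 2 or 3 (0.087, 0.097 and 0.085). Mettl17, a methyltransferase-like protein bound to the small subunit and listed at a locus shared with Slc39a2, had 5.96, 7.01 and 5.36 FPKM in knockouts and 8.12, 8.95 and 7.71 FPKM in controls. Here knockout replicate 2 was the nearest to the controls. This call (log2 fold change -0.41 with SE 0.13, adjusted p by limma = 0.047) was lost without knockout replicate 1 (0.11) or 3 (0.099) and without control replicate 1, 2 or 3 (0.11, 0.16 and 0.086). None of these 9 genes passed when libraries were scaled to one sum, where their log2 fold changes ran from -0.64 for Mtrf1l to -0.17 for Mterf4.

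Ratios of FPKM within a library do not depend on how libraries are scaled, and 11 pairs of known partners or relatives, set after the values were seen, were compared by such ratios; some are partners in a complex or pathway and others only relatives. For 6 of them every knockout ratio lay below every control ratio, for 1 above, and for 4 the groups overlapped. Single loci also separate often (28.7% below and 23.6% above), the pairs were picked by hand, and no other pairs were examined, so the count shows nothing particular to partners. With 3 libraries against 3 the smallest exact two-sided permutation p is 0.10, so the ratios are given without a test. The ratio of Dguok to Tk2, the purine over the pyrimidine kinase, was 2.62, 1.63 and 2.25 in knockouts and 7.88, 6.13 and 9.08 in controls. That of Mpv17l2 to its relative Mpv17, at the shared locus, was 0.401, 0.378 and 0.563 in knockouts and 0.0776, 0.102 and 0.0877 in controls. These were the widest separations of the 11 pairs.

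Mtif2 to Mtif3, both initiation factors, stood at 1.2, 1.3 and 1.32 in knockouts and 2.41, 2.22 and 1.67 in controls. For Tufm to its exchange factor Tsfm the ratio was 1.07, 1.07 and 1.20 in knockouts and 1.48, 1.61 and 1.61 in controls, so the factor that carries tRNAs was lower relative to the one that recharges it. The ratio of Mterf4 to Nsun4, which form a complex, was 0.465, 0.552 and 0.438 in knockouts and 0.647, 0.626 and 0.620 in controls. Tfb1m to Tfb2m, related methyltransferase-fold proteins, had 0.574, 0.683 and 0.464 in knockouts and 0.704, 0.766 and 0.844 in controls. Lrpprc to Slirp came closest to overlap of these, at 0.969, 0.884 and 0.809 in knockouts and 1.13, 0.978 and 0.980 in controls. Supv3l1 to Pnpt1, Polg to Polg2, Gfm1 to Gfm2 and Polrmt to Tfam overlapped between the groups, with differences of 0.10, 0.44, -0.11 and -0.23 in the mean log2 ratio, knockout minus control.

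**Figure D4:**
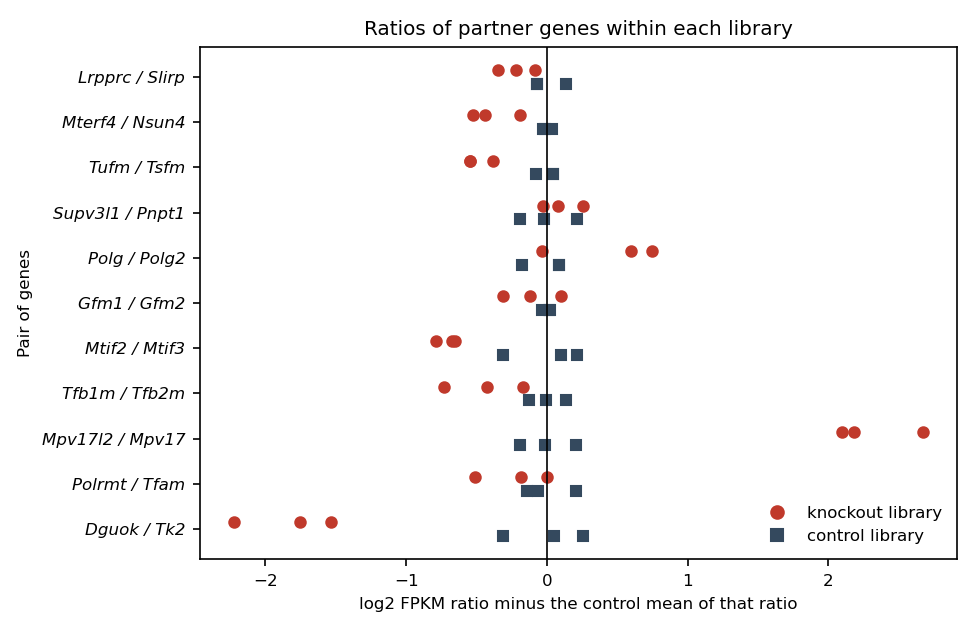
Log2 FPKM ratio of 11 pairs of genes in each library, minus the control mean of that pair; knockout libraries are red circles drawn above the control libraries, dark squares. Mpv17l2 to Mpv17 lies far to the right in every knockout (mean difference 2.31) and Dguok to Tk2 far to the left (-1.84).

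A feature that the choice of genes did not use is the sequence before their starts. Upstream windows of 250 bases were taken from RefSeq (GRCm38.p6) for 49 of the 58 genes and searched on both strands for 4 short motifs of factors known to act on nuclear genes of mitochondria or on stress genes. The core bound by GABP, spelled CCGGAAG, was found before 19 of the 49 genes (38.8%), beside 16% of 8657 tested coding genes and 7.83% of all 27025 genes with a window. In 18 of the 19 the nearest match started within 72 bases of the transcript start, and its distance in other genes was not examined. A core of NRF1 sites, GCGCA followed by any base and GCGC, was found before 4 genes (8.16%, against 9.47% of tested coding genes and 4.23% of all), one of YY1 sites, AAGATGGC, before 4 (8.16%, against 2.34% and 1.83%), and a composite element of ATF4, TGATGNAA, before 1, Fastkd2 (2.04%, against 2.45% and 3.91%). Of the 17 tested genes with the GABP core (Mterf1a and Mterf1b were not tested) 5 fell and 1 rose, and of the 30 tested genes without it 13 fell and 2 rose; this difference was not tested. A match describes letters and is not evidence of binding.

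The sequences below are examples, chosen to show a match to 1 of 3 motifs or a gene that passed the test and has no match. They run 5′ to 3′ along the gene, from 80 bases before a transcript start to the last base before the annotated gene, with motif matches in capitals. Polrmt, Polg2, Slirp and Ptcd2 carry the GABP core, with CTTCCGG as its other strand, Oxa1l an NRF1 core and Mgme1 a YY1 core. Mterf2, Dguok, Mpv17l2 and Rexo2, which passed the test, have none of the 4 motifs in the 250 bases searched.
Polrmt: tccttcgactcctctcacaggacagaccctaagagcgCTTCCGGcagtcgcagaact
Polg2: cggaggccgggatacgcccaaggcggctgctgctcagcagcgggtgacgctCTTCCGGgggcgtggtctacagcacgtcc
Slirp: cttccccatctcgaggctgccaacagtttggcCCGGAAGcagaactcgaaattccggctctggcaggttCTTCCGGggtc
Ptcd2: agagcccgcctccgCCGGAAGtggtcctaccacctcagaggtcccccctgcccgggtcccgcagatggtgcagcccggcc
Oxa1l: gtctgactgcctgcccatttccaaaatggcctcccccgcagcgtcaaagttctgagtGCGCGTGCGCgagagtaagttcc
Mgme1: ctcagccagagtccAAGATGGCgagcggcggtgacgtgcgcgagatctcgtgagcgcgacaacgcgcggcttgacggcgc
Mterf2: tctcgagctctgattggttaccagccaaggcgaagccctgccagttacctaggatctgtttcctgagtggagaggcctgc
Dguok: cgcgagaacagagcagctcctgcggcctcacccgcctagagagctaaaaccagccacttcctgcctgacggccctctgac
Mpv17l2: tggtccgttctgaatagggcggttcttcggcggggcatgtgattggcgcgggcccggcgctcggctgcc
Rexo2: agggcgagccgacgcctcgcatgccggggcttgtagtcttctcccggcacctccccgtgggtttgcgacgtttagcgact
The windows lie at chr10:79746605-79746661 (Polrmt, minus strand), chr11:106779538-106779617 (Polg2, minus), chr12:87443816-87443895 (Slirp, plus), chr13:99344679-99344758 (Ptcd2, minus), chr14:54360761-54360840 (Oxa1l, plus), chr2:144270824-144270903 (Mgme1, plus), chr10:85128028-85128107 (Mterf2, minus), chr6:83506970-83507049 (Dguok, minus), chr8:70760933-70761001 (Mpv17l2, minus) and chr9:48480612-48480691 (Rexo2, minus).

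**Figure D5:**
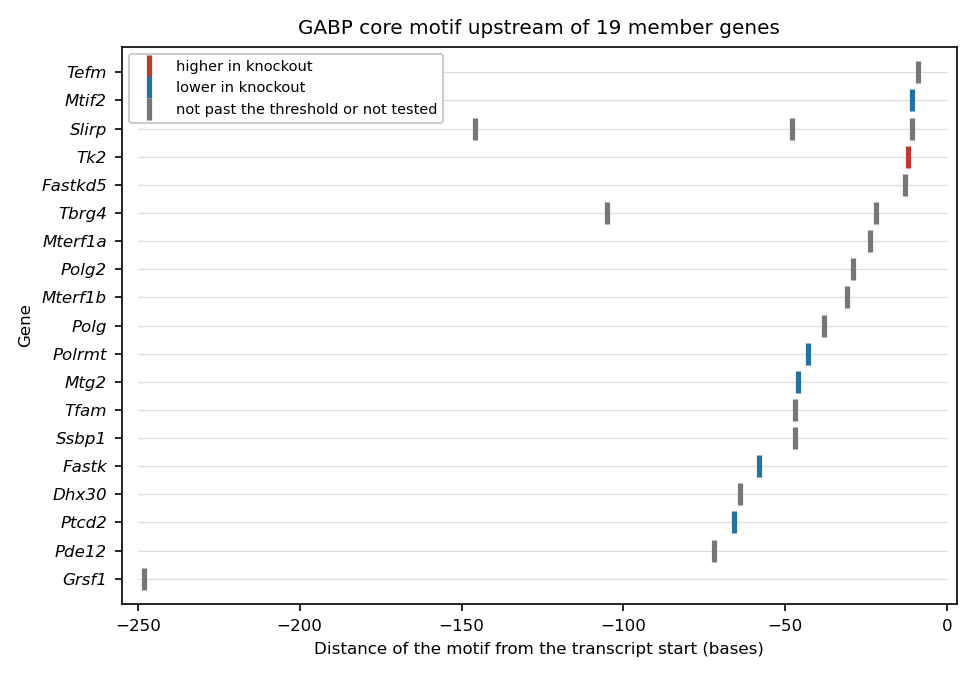
Distance, in bases, from the transcript start to the first base of each GABP core in the 250 bases upstream of the 19 genes that have one; blue marks genes that fell, red the gene that rose, and grey genes that did not pass or were not tested. All but Grsf1 have a match within 72 bases of the start.

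Genes of the same pathway outside the 58 were examined from a list of 36, of which 35 were matched and 32 tested. Of these 10 fell and 1 rose (31.2% and 3.12%, beside the background of 19.5% and 16.1%), with a median log2 fold change of -0.19. Twnk, the helicase of the mitochondrial replication fork (listed as Peo1), had 4.99, 4.13 and 4.43 FPKM in knockouts and 7.95, 8.01 and 6.78 FPKM in controls, without overlap (log2 fold change -0.69, limma adjusted p = 0.0059), a call lost when libraries were scaled to one sum without mitochondrial loci (0.058). Pdf, which removes the formyl group from new mitochondrial proteins and is listed with Cog8, fell to 16.2 ± 1.75 FPKM in knockouts, against 31.1 ± 3.09 FPKM in controls (SD, n = 3 each, log2 fold change -0.92, limma adjusted p = 0.0025). Endog, a mitochondrial nuclease, fell to 16.2 ± 2.37 FPKM in knockouts, against 28.6 ± 3.54 FPKM in controls (limma adjusted p = 0.0073). Slc25a33, a carrier of pyrimidine nucleotides, was the gene that rose, with 9.42, 9.05 and 10.3 FPKM in knockouts and 5.98, 5.11 and 4.09 FPKM in controls. The groups did not overlap (log2 fold change 0.87, limma adjusted p = 0.0047). The other 7 genes that fell were Rrm2b, Slc25a36, Rpusd4, Mrm2, Mrm3, Ybey and Metap1d, and each of these calls was lost under scaling to one sum. Leaving out control replicate 1, 2 or 3 left 5 genes lower each time, and 2 genes were higher without knockout replicate 2, knockout replicate 3 or control replicate 3.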

How the data were processed

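Total heart RNA of 3 knockout and 3 control samples was sequenced from TruSeq libraries primed with random hexamers after Ribo-Zero treatment, per the labels' protocols. The deposited values are FPKM per locus, 1 library per file, per the file headers. The submitters' processing notes name HISAT 0.1.6, HISAT2 2.0.1, StringTie 1.1.0, Cufflinks 2.2.1, Cuffdiff, SAMtools 1.3, Picard 1.23 and bedtools, with builds GRCm38 and mm10. What each tool did is not recorded there, and the annotation, use of strand and scaling between libraries were not given. FPKM are not counts and whole reads were not recovered, so no counting interval is given. Relative depth is the commonest ratio of FPKM between 2 libraries among loci under 1 FPKM.

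Values were tested as log2(FPKM + 0.5) with limma 3.58.1 in R 4.3.3 (mean-variance trend, two-sided, Benjamini-Hochberg over 12181 loci). The fit was also run on simulated data with errors independent between loci and few loci changed. Here 35.7% of loci passed, so that run does not show how the fit performs on these data. Members were matched by symbol, and 7 of the 58 share a locus with another name. Positions are from RefSeq GRCm38.p6. Members and lists were chosen with earlier results of these data known. All members are accounted for. In each step, values in every library are given for the called members with the largest change, up to 4 per direction, and for the most abundant member. Further members were added after their values were seen. Alternatives varied the pseudocount, filter, scaling, variance model, replicate block and each library left out.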

Additional observations from a re-analysis of the deposited data

How the results depend on the processing

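Of the 56 tested genes, 41 kept their sign in all 17 alternatives. With 1 library left out, 11 to 21 members fell and 3 to 5 rose, their median log2 fold change ran from -0.40 to -0.24, and 5 to 9 of the other genes fell and 1 to 2 rose. Scaled to a summed FPKM of 1000000, 11 members fell and 5 rose with a median of -0.15, and 3 other genes fell and 6 rose. Scaled without mitochondrial loci the same values were 11, 5, -0.11, 2 and 7. Over all loci these scalings gave 3229 higher with 1400 lower, and 3380 higher with 1289 lower, against 1966 and 2377. Array weights gave 5 members higher and 24 lower, and 6 other genes higher and 12 lower, beside 2857 higher and 3367 lower over all loci. Other genes higher numbered 3 with median-of-ratios scaling, 2 after quantile normalization and 2 with a minimum of 1 FPKM in all libraries.

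With the replicate number as a replicate block, 13 members and 6 other genes fell, as did 1807 of all loci. Same-numbered libraries did not deviate together (correlations of -0.08, -0.06 and -0.01), and they were not treated as pairs.

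Signs turned for 15 genes, none past the threshold. Scaled to 1000000, log2 fold changes turned positive for Polg (0.12), Ssbp1 (0.08), Supv3l1 (0.03), Mtpap (0.18), Ptcd1 (0.05), Fastkd2 (0.03), Fastkd5 (0.12), Eral1 (0.13), Nsun4 (0.21), Dhx30 (0.09), Malsu1 (0.10), Mtif3 (0.05) and Mrrf (0.13). Without mitochondrial loci they were Polg 0.15, Ssbp1 0.11, Tfam 0.01, Tfb2m 0.01, Supv3l1 0.06, Mtpap 0.21, Ptcd1 0.08, Fastkd2 0.06, Fastkd5 0.14, Eral1 0.15, Nsun4 0.23, Dhx30 0.12, Malsu1 0.13, Mtif3 0.08 and Mrrf 0.16. Array weights turned Polg (0.00), Mtpap (0.12), Nsun4 (0.03) and Mrrf (0.03), and median-of-ratios scaling Nsun4 (0.02). With 1 library left out, Mtpap ran from -0.15 to 0.16, Fastkd5 from -0.25 to 0.09, Nsun4 from -0.13 to 0.12, Malsu1 from -0.24 to 0.04 and Mrrf from -0.19 to 0.05, all turned without knockout replicate 2, and Malsu1 also without control replicate 3 (0.01). The cause was not tested. Depth is known only relative to control replicate 1, which limits what can be said of Mterf1a and Mterf1b.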
